A study of Homo sapiens with 19 samples.

Results

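WDR25, PEX14, TMEM256, UBE2L3, NGDN, TRAPPC4, HMOX2, GAB2, C19orf81 and IQCJ-SCHIP1 are 10 of the 19942 rows of protein-coding genes in the deposited expression table. They were chosen by their TPM, an estimate of transcript abundance scaled to length and library size, which moved most between a control siRNA library and a G3BP1 or G3BP2 knockdown library of SH-SY5Y cells, so their values in those libraries are descriptions without a test. Among genes above 10 TPM in at least 1 of the 2 libraries compared, WDR25, PEX14 and TMEM256 had the 3 largest folds in the G3BP1 knockdown, and TRAPPC4 and HMOX2 ranked 2 and 3 from the bottom. In the G3BP2 knockdown, PEX14, TMEM256 and UBE2L3 stood at the top and IQCJ-SCHIP1, GAB2 and C19orf81 at the bottom, followed by HMOX2. NGDN ranked 6 and 10 from the top. It joined the list as a gene that the study also measured by RT-qPCR, as it did HMOX2, and those measurements were not analysed here.

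G3BP1 and G3BP2 are related RNA-binding proteins that hold stress granules together, the cytoplasmic condensates in which untranslated mRNAs gather when translation stalls. A protein that binds an mRNA can alter how fast it decays or is translated, and knockdown followed by poly-A RNA-seq asks which mRNA levels move with it. TPM describes the estimated amount of a gene's transcripts per length, so it can also move when reads are divided differently among transcripts or among genes that overlap.

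SH-SY5Y is a human neuroblastoma cell line. The knockdown libraries came from cells given a negative-control siRNA (siCtrl), a single siRNA against G3BP1 (siG3BP1) or a single siRNA against G3BP2 (siG3BP2). The Total and SG libraries came from cells without siRNA that received sodium arsenite (AS), which induces stress granules. Total is the cleared lysate of those cells and SG is the RNA of granule cores precipitated from it with an antibody to G3BP1. Another pair of libraries held rRNA-depleted RNA of untreated and AS-treated cells, and eCLIP, in which RNA crosslinked to an immunoprecipitated protein is sequenced, was made for G3BP1 and G3BP2 in untreated (Ctrl) and AS-treated cells. With 1 library for each condition, no RNA-seq difference has a replicate check, whereas each eCLIP group had 2 libraries.

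The knockdown reached its targets. G3BP1 stood at 18.7 TPM in siCtrl and 6.0 TPM in siG3BP1, which is 32.0% of siCtrl, and at 88.3% in siG3BP2. G3BP2 stood at 38.1 TPM in siCtrl and 11.4 TPM in siG3BP2, which is 29.9%, and at 103% in siG3BP1. Of 12 adrenergic neuroblastoma markers, 11 were above 1 TPM in each of the 5 TPM libraries, and no glial marker was. The 7 mesenchymal markers were above 1 TPM as well, and summed to 108 to 113 TPM in the siRNA libraries beside 4884 to 5044 TPM for the neuroblastoma markers. The labels give AS at 50 mM for 1 h to all libraries other than the rRNA-depleted pair, siCtrl and the Ctrl eCLIP libraries included, whereas the methods give 500 µM for 1 h and mention no AS for the knockdown. The stress-induced transcript of FOS stood at 2.71, 2.01 and 1.91 TPM in siCtrl, siG3BP1 and siG3BP2 and at 174 TPM in Total, and HSPA6 was listed at 0 in those 3 libraries and at 23.2 TPM in Total. FOS and HSPA6 were thus far lower in the 3 siRNA libraries than in Total. Total differed from siCtrl in siRNA, AS and lysate preparation together, and these cannot be told apart.

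**Figure D1:**
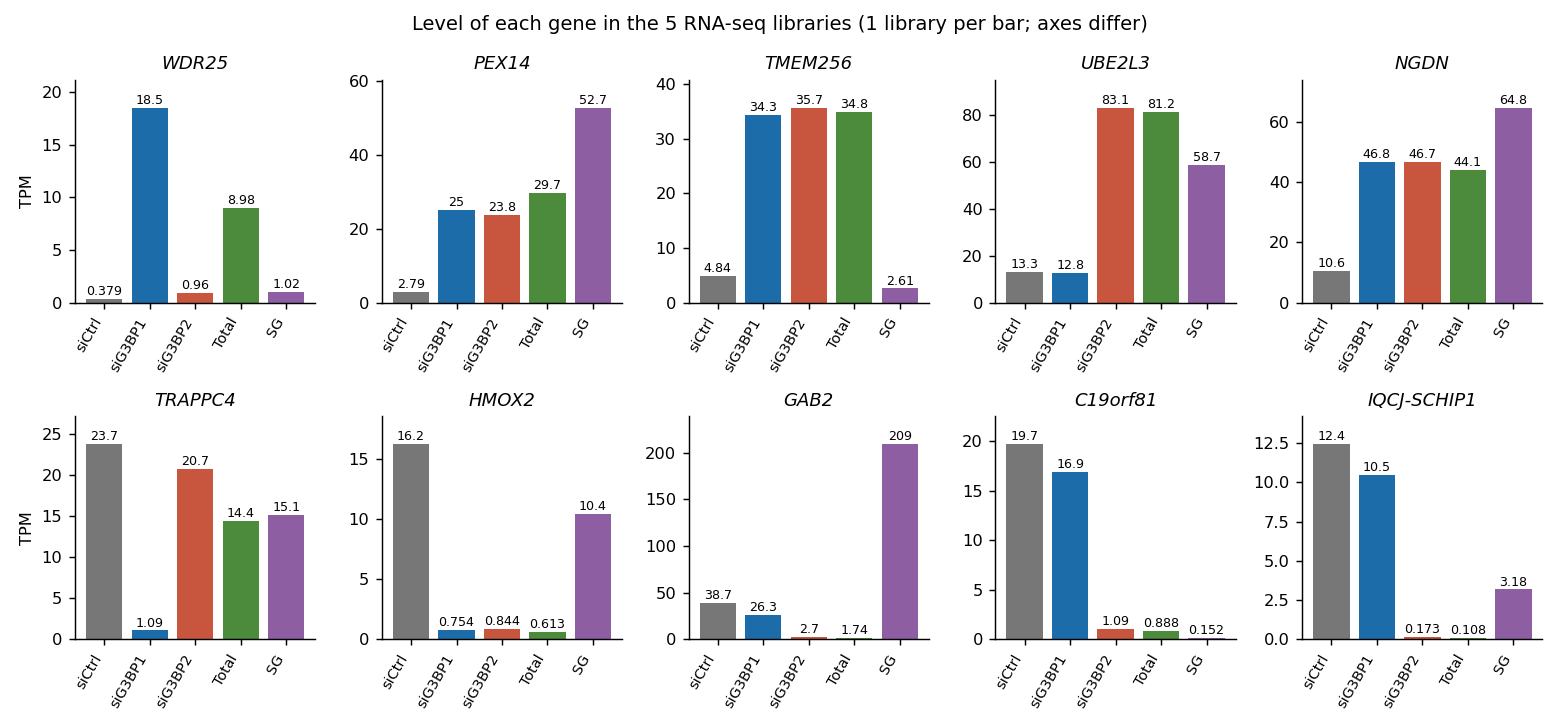
TPM of each of the 10 genes (1 panel per gene, its own linear axis from 0) in the siCtrl, siG3BP1, siG3BP2, Total and SG libraries, with 1 library per bar and no error. PEX14, TMEM256 and NGDN are low in siCtrl and higher in siG3BP1, siG3BP2 and Total, while for GAB2, C19orf81 and IQCJ-SCHIP1 the siG3BP2 and Total bars are low together.

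A gene was counted as higher or lower where the fold of TPM + 1 was above 2 or below 0.5 and the higher library was above 1 TPM. By that rule 6 of the 10 genes differed between siG3BP1 and siCtrl, 4 higher and 2 lower, where 3.09% of 12259 genes did, 1.12% higher and 1.97% lower. Between siG3BP2 and siCtrl 8 differed, 4 higher and 4 lower, where 4.12% of 12207 genes did, 1.23% higher and 2.89% lower. These contrasts chose the genes, so nothing is read from either count. In bulk RNA a lower level per cell and fewer cells with the transcript cannot be told apart. The fold of TPM + 1 understates the change of genes at low TPM.

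The genes next to the list were close in size. In siG3BP1, TMEM256 had the smallest log2 fold of the leading 3, 2.60, and the next gene was PPFIBP2 at 2.30, from 1.64 to 11.96 TPM. At the other end HMOX2 stood at -3.30, and PFDN1 followed at -3.24, from 59.8 to 5.42 TPM. In siG3BP2, UBE2L3 at 2.56 was followed by PFDN6 at 2.44, from 1.82 to 14.3 TPM, and HMOX2 at -3.22 by BOP1 at -3.19, from 88.1 to 8.75 TPM.

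Against siCtrl, the Total library, which had no siRNA, differed for 9 of the 10 genes, 5 higher and 4 lower, where 20.9% of 12151 genes differed, 1.28% higher and 19.6% lower. The median log2 fold of all genes tested was -0.41 in that comparison, and it was -0.08 in siG3BP1 and -0.12 in siG3BP2. All 3 comparisons use the same siCtrl library, so a low or high siCtrl value enters each of them, and their values are given side by side for each gene below. Between the knockdowns, siG3BP2 against siG3BP1, 6 of the 10 differed, 2 higher and 4 lower, where 3.32% of 12157 genes did, 1.39% higher and 1.93% lower. Both of these libraries entered the choice of the genes, so nothing is read from this count either.

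**Figure D2:**
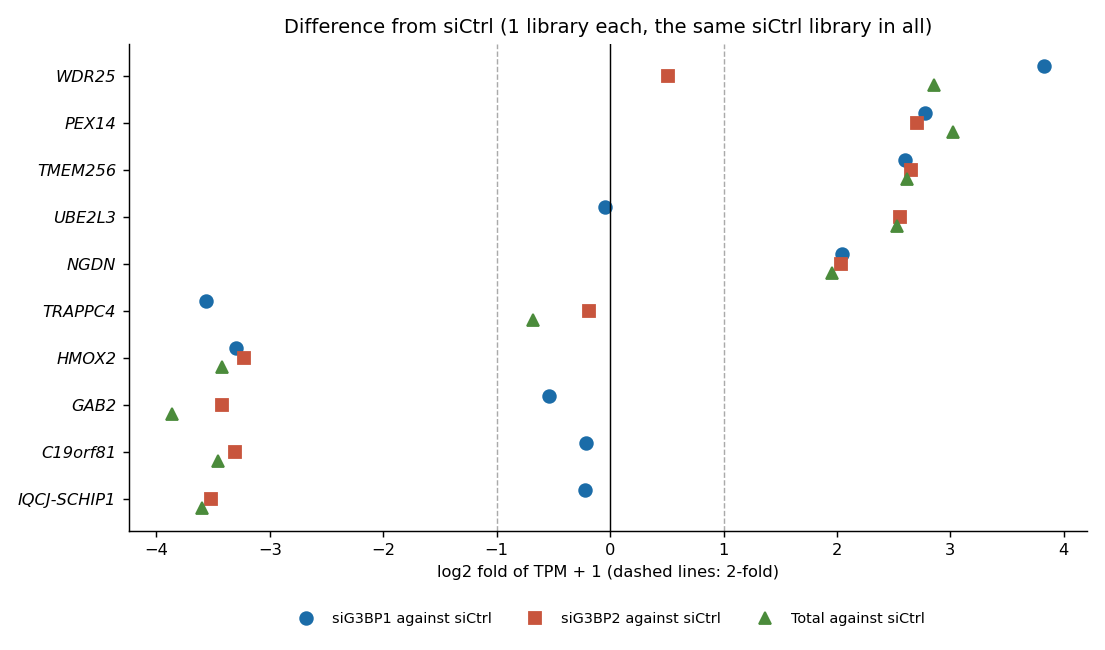
Log2 fold of TPM + 1 against siCtrl for each gene in siG3BP1, siG3BP2 and Total (1 library each, the same siCtrl library throughout, dashed lines at 2-fold). The points of PEX14, TMEM256, NGDN and HMOX2 lie together, whereas WDR25 lies apart in siG3BP2, TRAPPC4 lies apart in siG3BP1 and UBE2L3, GAB2, C19orf81 and IQCJ-SCHIP1 lie near 0 in siG3BP1 and together in siG3BP2 and Total.

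PEX14 and TRAPPC4 serve organelles and membrane traffic. PEX14 (ENSG00000142655, GRCh38 chromosome 1, 10472288 to 10630758, plus strand) encodes the docking protein of the peroxisomal import machinery. Its level was 2.79 TPM in siCtrl, 25.0 in siG3BP1, 23.8 in siG3BP2, 29.7 in Total and 52.7 in SG. The siCtrl library was the low one, and the other 4 libraries lay above it. The log2 folds of TPM + 1 against siCtrl were 2.78 in siG3BP1, 2.71 in siG3BP2 and 3.02 in Total, and those of the 3 libraries lay within 0.31 of each other.

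Peroxins build peroxisomes and import their enzymes. Of 16 peroxins tested, PEX14 was the 1 counted as higher in siG3BP1, in siG3BP2 and in Total. PEX11G, a peroxin of the membrane, was the 1 counted as lower in siG3BP2, at 2.08 TPM against 5.92 in siCtrl. The median log2 fold of the 16 was -0.17 in siG3BP1 and -0.13 in siG3BP2, beside -0.08 and -0.12 over all genes tested.

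TRAPPC4 (ENSG00000196655, chromosome 11, 119018763 to 119025454, plus strand) encodes a core subunit of the TRAPP complexes, which tether vesicles in endoplasmic reticulum to Golgi transport. It was measured at 23.7 TPM in siCtrl, 1.09 in siG3BP1, 20.7 in siG3BP2, 14.4 in Total and 15.1 in SG. Here siG3BP1 alone was low. Its log2 folds against siCtrl were -3.56 in siG3BP1, -0.19 in siG3BP2 and -0.68 in Total, and siG3BP2 exceeded siG3BP1 by 3.38.

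Among 15 TRAPP subunits tested in siG3BP1, TRAPPC4 was the 1 counted as lower and none was counted as higher. In siG3BP2 the 1 subunit counted as lower was TRAPPC12, at 3.87 TPM against 9.19 in siCtrl, and it was counted as higher in Total, at 35.7 TPM. TRAPPC4 shares 868 exonic bases, 18.0% of its own, with SLC37A4 on the opposite strand, the glucose-6-phosphate transporter gene. SLC37A4 stood at 5.89 TPM in siCtrl, 9.45 in siG3BP1, 5.46 in siG3BP2, 5.02 in Total and 5.31 in SG. The SLC37A4 value was highest in siG3BP1, where TRAPPC4 was lowest. Both genes summed to 29.6 TPM in siCtrl, 10.5 in siG3BP1, 26.2 in siG3BP2 and 19.4 in Total. Whether the TPM were counted by strand is not given in the sources used here, so reads in the shared bases may have been assigned to either gene. The part of such reads in the TRAPPC4 values was not tested.

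UBE2L3 and HMOX2 encode enzymes. UBE2L3 (ENSG00000185651, chromosome 22, 21549447 to 21624034, plus strand) is a ubiquitin-conjugating enzyme that works with HECT and RBR ubiquitin ligases. Its values were 13.3 TPM in siCtrl, 12.8 in siG3BP1, 83.1 in siG3BP2, 81.2 in Total and 58.7 in SG. The siCtrl and siG3BP1 libraries formed the low pair, and siG3BP2 and Total lay within 0.03 of each other on the log2 scale. Against siCtrl the log2 fold was -0.05 in siG3BP1, 2.56 in siG3BP2 and 2.53 in Total.

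Of 35 conjugating enzymes of ubiquitin and its relatives tested in siG3BP1, none was counted as changed. UBE2L3 was the 1 counted in siG3BP2, of 34 tested, and the 1 counted as higher in Total, where UBE2O, UBE2QL1 and BIRC6 were counted as lower.

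HMOX2 (ENSG00000103415, chromosome 16, 4474690 to 4510347, plus strand) encodes the constitutive heme oxygenase, which opens the heme ring to biliverdin. It stood at 16.2 TPM in siCtrl, 0.754 in siG3BP1, 0.844 in siG3BP2, 0.613 in Total and 10.4 in SG. The siCtrl and SG libraries were high and the other 3 were under 1 TPM. The log2 folds against siCtrl were -3.30 in siG3BP1, -3.22 in siG3BP2 and -3.42 in Total, so the library without siRNA was as far from siCtrl as either knockdown.

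HMOX1, the stress-inducible heme oxygenase, stood at 4.83, 5.29 and 3.07 TPM in siCtrl, siG3BP1 and siG3BP2 and at 5.87 TPM in Total. Of the 5 genes tested among the heme oxygenases, the biliverdin reductases and their electron donor, HMOX2 was counted as lower in all 3 comparisons with siCtrl. POR, the cytochrome P450 reductase that passes electrons to heme oxygenase, was counted as lower in siG3BP1 and Total, at 11.96 and 16.3 TPM against 84.1 in siCtrl.

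GAB2 and IQCJ-SCHIP1 encode adaptor and scaffold proteins. GAB2 (ENSG00000033327, chromosome 11, 78215293 to 78418348, minus strand) is a docking protein that links receptor tyrosine kinases to SHP2 and PI3K. Its level was 38.7 TPM in siCtrl, 26.3 in siG3BP1, 2.70 in siG3BP2, 1.74 in Total and 209 in SG. Both siG3BP2 and Total were low, and SG was the highest of the 5. Against siCtrl the log2 fold was -0.54 in siG3BP1, -3.42 in siG3BP2 and -3.86 in Total.

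Of 12 GAB adaptors and signalling partners tested, none was counted in siG3BP1, and in siG3BP2 GAB2 and PIK3R1, a regulatory subunit of PI3K, were counted as lower. In Total 5 of the 12 were counted as lower, with a median log2 fold of -0.96 against -0.41 over all genes tested.

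IQCJ-SCHIP1 (ENSG00000283154, chromosome 3, 158962235 to 159897629, plus strand) is a readthrough gene whose transcripts join exons of IQCJ to those of SCHIP1. SCHIP1 encodes a partner of the neurofibromin 2 protein merlin, and the joined protein binds ankyrins at axon initial segments. IQCJ-SCHIP1 was measured at 12.4 TPM in siCtrl, 10.5 in siG3BP1, 0.173 in siG3BP2, 0.108 in Total and 3.18 in SG. It had the widest span of the 10 genes, with a highest value 116 times the lowest over siCtrl, siG3BP1, siG3BP2 and Total. The log2 folds against siCtrl were -0.22 in siG3BP1, -3.52 in siG3BP2 and -3.60 in Total.

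Part of its exonic sequence is shared. IQCJ-SCHIP1 shares 1642 exonic bases, 34.8% of its own, with SCHIP1, and 405 bases, 8.60%, with IQCJ, both on the same strand. The junction at which the readthrough skips to the first shared SCHIP1 exon lies between a donor at chr3:159765138 and an acceptor at chr3:159866163 on the plus strand of GRCh38 and occurs in 5 annotated transcripts, all of IQCJ-SCHIP1. It is shown because, among annotated transcripts, a read across these letters belongs to the readthrough alone, with the downstream exon in capitals, from the GENCODE transcripts:
IQCJ-SCHIP1 junction: accaactccacctccGCACAGAAAAATGAG

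SCHIP1 itself stood at 66.9 TPM in siCtrl, 59.4 in siG3BP1, 66.4 in siG3BP2, 36.1 in Total and 70.1 in SG, and IQCJ was listed at 0 in the first 4 libraries. Summed over the 3 genes, the locus stood at 79.4, 69.9, 66.6, 36.2 and 73.3 TPM in the same order. The summed locus thus lacked the low siG3BP2 value of the readthrough gene. The summed log2 folds were -0.18 in siG3BP1, -0.25 in siG3BP2 and -1.11 in Total, and siG3BP2 no longer differed by the rule.

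NGDN acts in ribosome production. NGDN (ENSG00000129460, chromosome 14, 23469679 to 23509862, plus strand) encodes neuroguidin, a factor of the small-subunit processome that also binds eIF4E. Its values were 10.6 TPM in siCtrl, 46.8 in siG3BP1, 46.7 in siG3BP2, 44.1 in Total and 64.8 in SG. The siCtrl library was again the low one. The log2 folds against siCtrl were 2.04 in siG3BP1, 2.04 in siG3BP2 and 1.96 in Total, the 3 libraries lying within 0.08 of each other, and no other annotated gene shares bases with NGDN.

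Of 43 small-subunit processome factors tested, which assemble the precursor of the small ribosomal subunit in the nucleolus, NGDN and UTP4 were counted as higher in all 3 comparisons with siCtrl. UTP4 stood at 15.3 TPM in siCtrl, 38.7 in siG3BP1, 36.6 in siG3BP2, 50.9 in Total and 39.7 in SG. FCF1 was the 1 factor counted as lower, in siG3BP2 and in Total. The median log2 fold of the list was -0.08 in siG3BP1 and -0.10 in siG3BP2, at the level of all genes.

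WDR25, TMEM256 and C19orf81 have no well-described function. WDR25 (ENSG00000176473, chromosome 14, 100376418 to 100530303, plus strand) encodes a WD-repeat protein. It stood at 0.379 TPM in siCtrl, 18.5 in siG3BP1, 0.960 in siG3BP2, 8.98 in Total and 1.02 in SG. High values were found in siG3BP1 and in Total, which were 0.97 apart on the log2 scale, and both siCtrl and siG3BP2 were under 1 TPM. Its log2 folds against siCtrl were 3.82 in siG3BP1, 0.51 in siG3BP2 and 2.86 in Total.

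TMEM256 (ENSG00000205544, chromosome 17, 7402975 to 7404097, minus strand) encodes a small membrane protein. Its level was 4.84 TPM in siCtrl, 34.3 in siG3BP1, 35.7 in siG3BP2, 34.8 in Total and 2.61 in SG. The siCtrl and SG libraries were low, and the 3 high ones lay within 0.05 on the log2 scale. The log2 folds against siCtrl were 2.60 in siG3BP1, 2.65 in siG3BP2 and 2.62 in Total.

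TMEM256 shares 211 exonic bases, 31.6% of its own, with the same-strand readthrough gene TMEM256-PLSCR3, which continues into a phospholipid scramblase gene. Both use the donor at chr17:7403310 on the minus strand of GRCh38. TMEM256 transcripts join it to an acceptor at chr17:7403209 across an intron of 100 bases, and those of TMEM256-PLSCR3 to one at chr17:7395090 across 8219 bases. The junctions are printed because they alone separate the genes at this exon, with the downstream exon in capitals, from the GENCODE transcripts:
TMEM256 junction: agaaagccactctggGCTGGGTTATTGCTA
TMEM256-PLSCR3 junction: agaaagccactctggGCGGCCTGAGCACGC

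TMEM256-PLSCR3 stood at 16.0 TPM in siCtrl, 22.1 in siG3BP1, 21.3 in siG3BP2, 17.6 in Total and 18.0 in SG. The summed values of both genes were 20.9, 56.5, 56.9, 52.5 and 20.7 TPM in the same order. Unlike at the SCHIP1 locus, the sum kept the low siCtrl value. Its log2 folds were 1.39 in siG3BP1, 1.40 in siG3BP2 and 1.29 in Total.

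**Figure D3:**
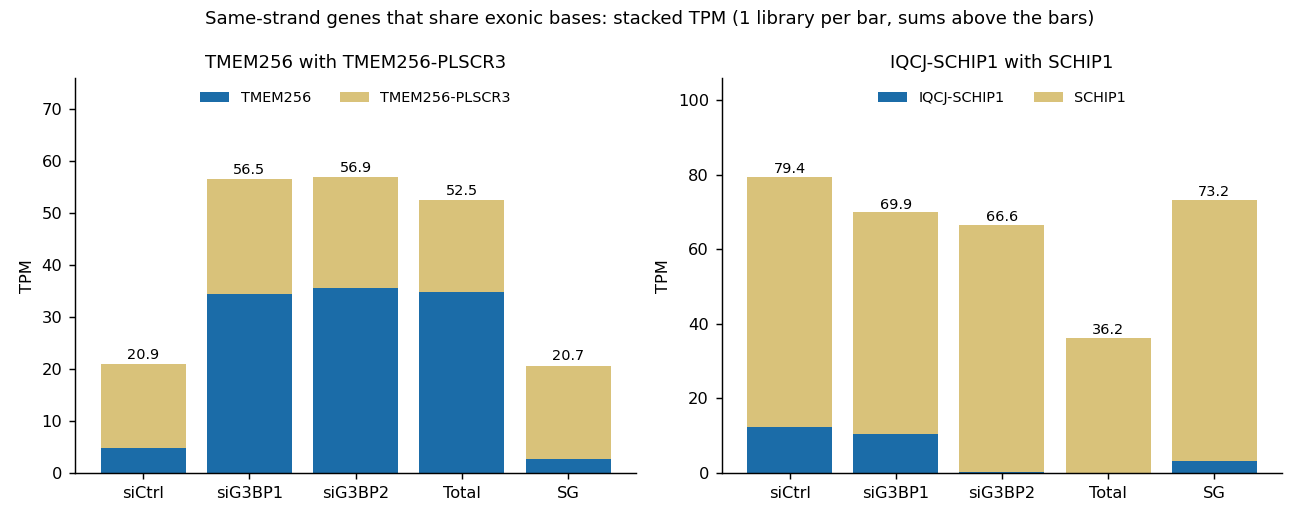
Stacked TPM of TMEM256 with TMEM256-PLSCR3 and of IQCJ-SCHIP1 with SCHIP1 in the siCtrl, siG3BP1, siG3BP2, Total and SG libraries (1 library per bar, linear axes from 0, sums printed above the bars). The TMEM256 sum is 20.9 TPM in siCtrl and at least 52.5 TPM in siG3BP1, siG3BP2 and Total, whereas IQCJ-SCHIP1 is a small share of each bar of its locus.

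C19orf81 (ENSG00000235034, chromosome 19, 50649445 to 50659310, plus strand) is an uncharacterised reading frame. It was measured at 19.7 TPM in siCtrl, 16.9 in siG3BP1, 1.09 in siG3BP2, 0.888 in Total and 0.152 in SG. As for GAB2 and IQCJ-SCHIP1, siG3BP2 and Total were the low pair. Against siCtrl the log2 fold was -0.21 in siG3BP1, -3.31 in siG3BP2 and -3.45 in Total. It shares 56 exonic bases with SHANK1, a postsynaptic scaffold gene on the opposite strand, which stood at 10.0 TPM in siCtrl, 8.84 in siG3BP1, 6.27 in siG3BP2, 2.33 in Total and 33.3 in SG.

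Set beside Total as well as siCtrl, no gene of the 10 had both knockdown libraries on one side and both libraries with intact G3BP1 and G3BP2 on the other. In PEX14, TMEM256, NGDN and HMOX2 siCtrl stood alone, and in TRAPPC4 siG3BP1 did. UBE2L3, GAB2, C19orf81 and IQCJ-SCHIP1 split the libraries into siCtrl with siG3BP1 and siG3BP2 with Total, and WDR25 into siCtrl with siG3BP2 and siG3BP1 with Total. The gap between the low and high libraries ran from 1.96 in NGDN to 3.29 in IQCJ-SCHIP1 on the log2 scale. Among 7387 genes above 10 TPM in at least 1 of the 4 libraries, 86 had a gap of at least 2. In 7 of these the libraries on one side of the gap differed among themselves by more than 1, and they were not sorted further. In none of the others did both knockdowns lie together on one side of siCtrl and Total. At a gap of at least 1 there were 780 genes, 52 of them not sorted and 585 low in Total alone, and 2 had both knockdowns low and 2 had both high. The limits were chosen after the values were seen. The choice of the 10 genes used siCtrl and both knockdown libraries, which favours values that stand apart there. Their split is thus a description, and a knockdown effect was not tested.

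Genes with a like profile were found for each member by the Euclidean distance between centred log2(TPM + 1) values over the 5 TPM libraries, among 10736 genes. For PEX14 it was NSRP1, a splicing regulator, at a distance of 0.459, with 0.512 TPM in siCtrl, 6.49 in siG3BP1, 8.57 in siG3BP2, 11.0 in Total and 15.1 in SG. POLR2J3 was nearest to NGDN, at 0.506, though it belongs to a family of near-identical copies among which reads may be divided. PFDN1, a prefoldin subunit, was nearest to TRAPPC4 at 0.612, with 5.42 TPM in siG3BP1 and at least 41.4 in the other 4 libraries. ACACA, the cytosolic acetyl-CoA carboxylase, was nearest to HMOX2 at 0.645, with 12.6 TPM in siCtrl, 1.27 in siG3BP1, 0.952 in siG3BP2, 0.814 in Total and 15.2 in SG. These genes share the library split of their partner, siCtrl alone or siG3BP1 alone. That follows from choosing them by distance over the same libraries and is not a separate result.

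For the remaining members the nearest gene was less alike. TNS1, a focal adhesion gene, was nearest to GAB2 at 0.839, with 17.6, 12.3, 2.18, 1.04 and 170 TPM in siCtrl, siG3BP1, siG3BP2, Total and SG. PFDN6 was nearest to TMEM256 at 0.888, with 1.82 TPM in siCtrl, 10.6 in siG3BP1, 14.3 in siG3BP2, 12.1 in Total and 1.61 in SG. NUBP1 for UBE2L3, WIPF1 for IQCJ-SCHIP1, ALKBH6 for WDR25 and ECH1 for C19orf81 lay at 1.34, 1.66, 1.83 and 1.94.

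SG against Total is a comparison that did not enter the choice of the genes. Of all genes tested, 72.4% of 13538 differed, 62.9% higher and 9.45% lower, with a median log2 fold of 1.52, and 5 of the 10 members did, 3 higher and 2 lower. GAB2 was higher in SG by 6.26 on the log2 scale, HMOX2 by 2.82 and IQCJ-SCHIP1 by 1.92. Their Total values were low, at 1.74, 0.613 and 0.108 TPM. In SG, HMOX2 at 10.4 TPM and IQCJ-SCHIP1 at 3.18 lay under their siCtrl values of 16.2 and 12.4. GAB2 at 209 TPM lay above its siCtrl value of 38.7. TMEM256 and WDR25 were lower, with log2 folds of -3.31 and -2.30. With a pseudocount of 10 in place of 1, HMOX2 at 0.94, IQCJ-SCHIP1 at 0.38 and WDR25 at -0.78 no longer passed, and IQCJ-SCHIP1 did not pass when summed with SCHIP1 and IQCJ, at 1.00. The GAB adaptors and partners were counted as higher in 11 of 12 tested, with a median of 3.81.

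Values of 0.81 for PEX14, 0.54 for NGDN, 0.06 for TRAPPC4, -0.46 for UBE2L3 and -0.71 for C19orf81 did not pass the rule, and for PEX14, NGDN and TRAPPC4 they lie above 0 but under the median of all genes. With the median ratio of SG to Total set to 1, the log2 folds were -0.62 for PEX14, -0.89 for NGDN and -1.26 for TRAPPC4. On that scale 6 of the 10 differed, 2 higher and 4 lower, beside 60.8% of 12756 genes. GAB2 at 4.80 and HMOX2 at 1.56 remained higher, IQCJ-SCHIP1 at 0.95 no longer passed, and TMEM256, WDR25, UBE2L3 and TRAPPC4 were lower.

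The rRNA-depleted libraries are an assay that the choice of genes did not use, with 1 deposited value per annotated transcript. Its total exceeds what TPM allows, so the value is treated as a signal and is set beside TPM only by percentile within a library. By its largest transcript GAB2 stood at percentile 93.0 in AS-treated rRNA-depleted RNA, and at 49.3 in Total, also from AS-treated cells. IQCJ-SCHIP1 stood at 90.6 and 32.2. C19orf81, at 32.1 and 43.6, and HMOX2, at 11.1 and 40.9, were low in both. What lies behind these differences was not tested. Summed per gene, none of the 10 differed between AS-treated and untreated cells, where 4.17% of 12673 genes did, 3.61% higher and 0.56% lower. TMEM256, TRAPPC4, HMOX2 and C19orf81 did not exceed 1 in either library, so the rule could not count them. With so few genes and so small a share, nothing is read from this count. FOS rose in the same pair from 0.768 to 236, so the AS response was present.

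Of PEX14, 2 transcripts stood above 1, with ratios of AS-treated to untreated of 1.30 to 1.42, and its reference transcript went from 4.85 to 6.32. The 4 such transcripts of UBE2L3 had ratios of 1.24 to 1.34, and the reference transcript values were 16.7 and 20.6. IQCJ-SCHIP1 had 7, with ratios of 1.32 to 1.37, and reference values of 7.03 and 9.63. In these 3 genes each transcript above 1 was higher after AS.

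NGDN and WDR25 each had 8 transcripts above 1, with ratios of 0.943 to 1.5 and of 0.957 to 1.18, and GAB2 had 7, with ratios of 0.835 to 1.09. In these 3 genes some transcripts were higher and others lower after AS. The summed values of C19orf81 were 0.671 in untreated and 0.778 in AS-treated cells. The median log2 fold of all genes tested was 0.27, and the summed log2 folds of the members above 0 ran from 0.00 in GAB2 to 0.45 in IQCJ-SCHIP1. With the median ratio set to 1 they ran from -0.27 in GAB2 to 0.17 in IQCJ-SCHIP1.

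**Figure D4:**
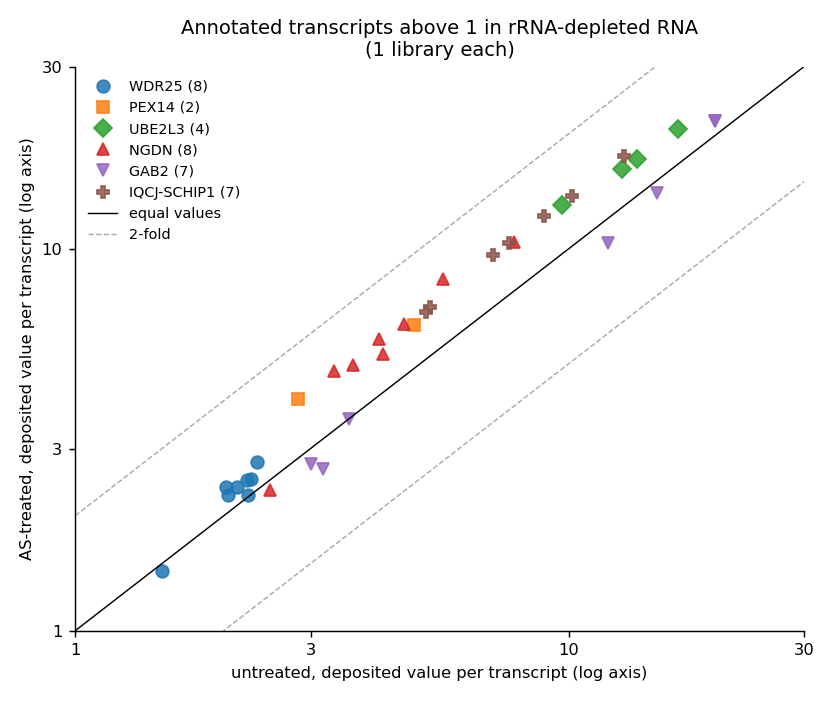
Deposited value of each annotated transcript above 1 in rRNA-depleted RNA of untreated cells (horizontal, log axis) and AS-treated cells (vertical, log axis), 1 library each, by gene. The transcripts lie near the diagonal, those of PEX14, UBE2L3 and IQCJ-SCHIP1 above it, with ratios from 1.24 to 1.42.

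TMEM256, TRAPPC4 and HMOX2 were listed at 0 in both rRNA-depleted libraries for every annotated transcript, 3, 14 and 18 of them. Thus 3 of the 10 genes were at 0 there, where 1.09% of 10726 genes above 10 TPM in at least 1 of the TPM libraries were. TRAPPC4 was listed at 0 there though it had 23.7 TPM in siCtrl. Whether such a 0 is a failed estimate or absence of the RNA was not tested. PFDN6, nearest in profile to TMEM256, was at 0 in both libraries as well.

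HMOX2 and its opposite-strand neighbour NMRAL1, which shares 103 exonic bases with it, have a full-length copy of the reference transcript on the alternate contig chr16_KI270855v1_alt of the reference. NMRAL1 was also at 0 in both rRNA-depleted libraries, at 48.0 TPM in siCtrl and at least 29.0 TPM in the other TPM libraries. Of the 210 genes above 10 TPM with such a copy, 21.0% were at 0 in both rRNA-depleted libraries and 41.4% at 0 in 5 or more of the 8 eCLIP libraries, where 0.694% and 1.69% of the genes without one were. HMOX2 was the 1 member with a copy of this kind in the assembly searched. The part of such copies in the HMOX2 values was not tested. Neighbours of the other members at 0 were low as well. TMEM256-PLSCR3 was at 0 in both rRNA-depleted libraries, and SLC37A4, which overlaps TRAPPC4, stood at 0.348 in untreated and 0.0302 in AS-treated cells.

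Genes listed at 0 in both rRNA-depleted libraries were also counted as changed more often in the knockdown libraries. Leaving out the 10 members, 11.4% of them differed between siG3BP1 and siCtrl and 22.8% between siG3BP2 and siCtrl, where 2.28% and 3.24% of the genes above 0 did. In Total against siCtrl the shares were 29.8% and 20.6%. What lies behind these shares was not tested.

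**Figure D5:**
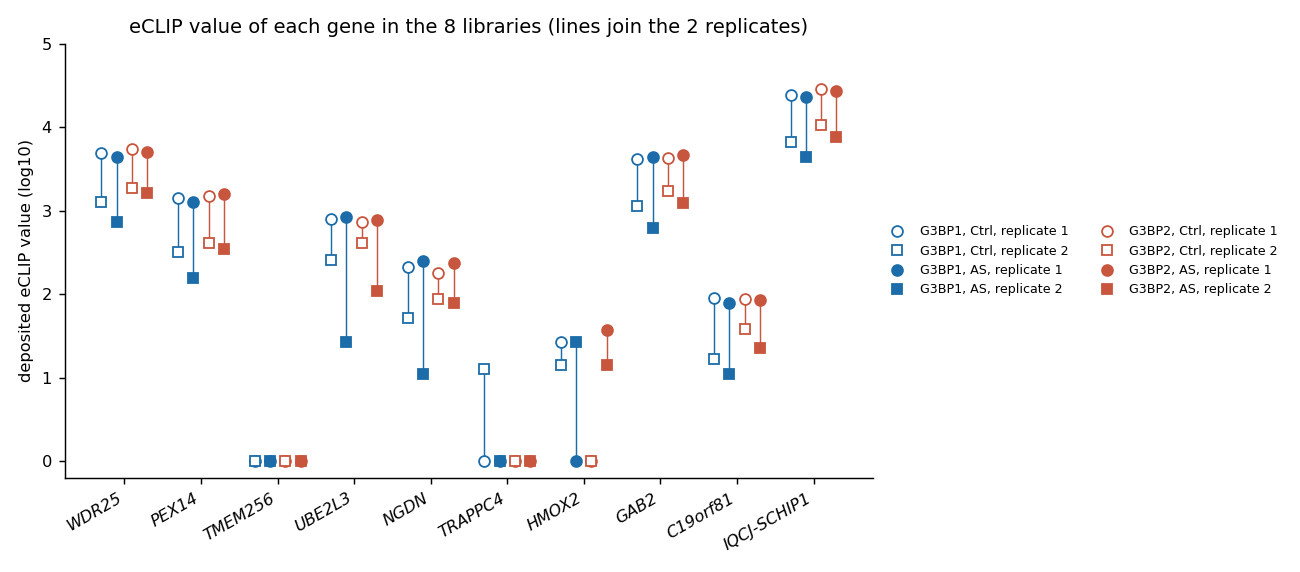
Deposited eCLIP value (log10, linear axis) of each gene in the 8 libraries, by protein and treatment, with a line joining the 2 replicates of a group. IQCJ-SCHIP1, WDR25 and GAB2 stand at 2.80 or above in each library, HMOX2 is at 1.57 or below, and TRAPPC4, with 1 library above 0, and TMEM256 lie at the foot.

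The eCLIP value, on a log10 scale and not scaled between libraries, asks whether G3BP1 or G3BP2 touched the RNAs. IQCJ-SCHIP1 had the largest of the 10 genes, with 4.39 and 3.82 in the 2 Ctrl G3BP1 libraries, 4.36 and 3.65 after AS, 4.46 and 4.03 in Ctrl G3BP2 and 4.44 and 3.88 after AS. For WDR25 they were 3.69 and 3.11, 3.64 and 2.87, 3.74 and 3.27, and 3.70 and 3.21 in the same order, and for GAB2 3.62 and 3.06, 3.65 and 2.80, 3.63 and 3.24, and 3.67 and 3.10. In each of the 3 genes the replicates of a group differed more than the group means did. These genes span 935395, 153886 and 203056 bases of genome, introns included.

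PEX14 stood at 3.16 and 2.51 in Ctrl G3BP1, 3.11 and 2.20 after AS, 3.18 and 2.62 in Ctrl G3BP2 and 3.20 and 2.54 after AS. UBE2L3 stood at 2.90 and 2.41, 2.93 and 1.43, 2.87 and 2.61, and 2.89 and 2.04 in that order, and NGDN at 2.33 and 1.72, 2.40 and 1.04, 2.26 and 1.94, and 2.37 and 1.89. Replicate 2 was the lower in each of these groups, and the values of its libraries summed to 4268543 to 10677547 over all genes, against 22678245 to 26179308 in replicate 1. C19orf81 ranged from 1.04 to 1.96.

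HMOX2 was at 1.43 and 1.15 in Ctrl G3BP1, 0 and 1.43 after AS, 0 and 0 in Ctrl G3BP2 and 1.57 and 1.15 after AS. TRAPPC4 had 1 library above 0, at 1.11 in Ctrl G3BP1, and TMEM256 was at 0 in all 8. At 0 in 5 or more libraries were 2 of the 10 genes, TMEM256 and TRAPPC4, where 2.47% of the genes above 10 TPM were.

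Set per length, as a ratio to the median gene above 10 TPM and per kb of the summed span of its annotated transcripts, the members fell into near-median and low genes. Over the 8 libraries the ratio ran from 1.11 to 1.5 for GAB2, from 1.05 to 1.32 for WDR25, from 0.958 to 1.13 for IQCJ-SCHIP1 and from 0.748 to 1.29 for PEX14. TMEM256 was at 0, and the others that stood low were NGDN, with 0.0646 to 0.310, HMOX2, with 0 to 0.0952, and TRAPPC4, with 0 to 0.225. The ratio depends on the annotation. GENCODE release 44 gives NGDN 29 transcripts, of which 12 are in the rRNA-depleted data, and more transcripts lower its ratio. UBE2L3 ran from 0.152 to 0.957 with a median of 0.802, and was low in replicate 2 after AS, at 0.152 for G3BP1 and 0.352 for G3BP2. C19orf81 ran from 0.873 to 1.40.

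Between AS-treated and untreated cells, limma with Benjamini-Hochberg adjustment called no gene of 18873 for G3BP1, and 44, or 0.233%, had an unadjusted p under 0.05. For G3BP2 it called 2 of 19019 genes, a percentage of 0.0105, with 157, or 0.825%, at an unadjusted p under 0.05. Of the 10 genes, 8 passed the filter of a value above 0 in at least 2 of the 4 libraries, TMEM256 and TRAPPC4 did not, and none was called, each at an adjusted p of 1.

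Over all genes tested, the median log10 change after AS was -0.115 for G3BP1 and -0.075 for G3BP2. With libraries scaled to the same total these medians were -0.00374 and -0.00242. Among the members the unscaled change in G3BP1 eCLIP ran from -0.575 for HMOX2 (SE 0.601) to -0.100 for IQCJ-SCHIP1 (SE 0.653). Each was smaller than its standard error in this fit. With the replicate number as a block, the changes of WDR25, PEX14, UBE2L3, NGDN and HMOX2 exceeded theirs, at an adjusted p of 0.787 each. In G3BP2 eCLIP the change of HMOX2 was 1.36 (SE 0.435), with an unadjusted limma p of 0.00178 and an adjusted p of 1, from 0 in both untreated libraries. The other 7 ran from -0.275 for UBE2L3 to 0.03 for NGDN. The difference between the proteins in that change, the interaction term of limma over all 8 libraries, called no gene of 19242, with 47, or 0.244%, at an unadjusted p under 0.05. For HMOX2 the term was 1.94 (SE 0.672), with an unadjusted p of 0.00398 and an adjusted p of 1. The standard errors changed with the block and with scaling. For WDR25 in G3BP1 eCLIP the SE was 0.60 as fitted, 0.109 with the block and 0.0424 with libraries scaled to the same total, where its change was -0.0322. IQCJ-SCHIP1 turned from -0.100 to 0.0129 with scaling, and no member was called in either fit.

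The study describes a sequence that G3BP eCLIP peaks share, and its letters CCAGCCTGG and their reverse complement CCAGGCTGG were searched in the reference transcripts. No reference transcript of the 10 genes held either, where 28.2% of 19874 reference transcripts and 31.0% of those of genes above 10 TPM did. Among transcripts within 10% of the member's length the share ran from 0% at the length of TMEM256 to 46.5% at that of GAB2. In the genomic span, introns included, the letters occurred from 16.4 times per 100 kb in IQCJ-SCHIP1 to 145 in UBE2L3 among the members that held them, where genes above 10 TPM had 51.2, and TMEM256 held none. Such a match marks letters and not a binding site.

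Bases shared with other genes differed by strand. A protein-coding partner on the same strand shared exonic bases with 2 of the 10, TMEM256 and IQCJ-SCHIP1, where 15.1% of genes above 10 TPM had one. A partner on the opposite strand shared bases with 6 of the 10, where 23.1% had one. These were WARS1 for WDR25 with 287 bases, DFFA for PEX14 with 207, RIMBP3C for UBE2L3 with 204, SLC37A4 for TRAPPC4, NMRAL1 for HMOX2 and SHANK1 for C19orf81. The reference transcripts of the members were 446 to 6110 bases long with 4 to 11 exons, and their genes spanned 1123 bases in TMEM256 to 935395 in IQCJ-SCHIP1.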

How the data were processed

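The genes and gene lists were chosen with earlier results of these data known. The TPM of the 5 siRNA, Total and SG libraries were deposited for protein-coding genes and were made by the authors with HISAT2 and StringTie, HISAT2 2.1.0 being the version in the submitters' processing notes. For rRNA-depleted RNA the deposited value of each transcript was handled as a signal. For eCLIP, the authors removed duplicate molecules with fastp, used STAR for alignment and CLIPper for peaks, with SMInput as the background, and the deposited value per gene is on a log10 scale. Which of these steps it includes is not given in the sources used here. TPM keeps no depth, and 2 eCLIP libraries per group limit the precision.

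Columns were assigned to samples by name. Of 19942 rows, 36 with IDs on 2 rows were left out. Folds were computed on TPM + 1 (Python 3.11.15, pandas 2.3.3, numpy 2.4.6, figures with matplotlib 3.10.9), with no test, since each condition had 1 library. The eCLIP test was that of limma 3.58.1 (R 4.3.3), trend included, at a Benjamini-Hochberg adjusted p of 0.05. Nothing says that the 2 libraries of a group came from separate cultures, so p-values may measure technical spread. Coordinates, exons and junctions came from GENCODE release 44 on GRCh38, where the authors used release 41, with the MANE Select transcript as the reference transcript of a gene, and copies on alternate contigs were found with minimap2 at 90% or more of the reference transcript's bases.

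Named are the members, genes that share their exons, the genes ranked next to them, the gene nearest in profile and called genes of the lists. FOS, HSPA6, HMOX1, SLC37A4, NMRAL1 and the other opposite-strand partners were added after their values were seen. 1 gene that meets the rule is not reported here. Alternatives covered the pseudocount, the fold threshold, the filter, scaling, summed overlapping genes, the transcript used, the replicate block and leaving out each eCLIP library. The 4 SMInput libraries and peak positions were not analysed here.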

Additional observations from a re-analysis of the deposited data

How the results depend on the processing

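Over the alternatives, 426 calls of the members by the rule stayed as they were, 10 no longer passed it and 3 newly did. Part of this was fixed in advance. The 50 calls without the filter and the 50 with a filter above 10 TPM could not change, because the filter entered only the share of all genes. Summing overlapping genes could change only TMEM256 and IQCJ-SCHIP1, the members with a same-strand partner. With the median ratio set to 1, TRAPPC4 in SG against Total turned from 0.06 to -1.26 and passed. No other fold that passed changed sign, whereas some that had not passed did, such as those of PEX14 and NGDN in that comparison, at -0.62 and -0.89. With a pseudocount of 0.1, WDR25 in siG3BP2 against siCtrl went from 0.51 to 1.15. C19orf81 in SG against Total went from -0.71 to -1.97. Both were then beyond 2-fold but stayed uncounted, since neither library was above 1 TPM. The count of members that differed stayed within 1.5 times its value for siG3BP1, siG3BP2 and Total against siCtrl, for siG3BP2 against siG3BP1 and for AS-treated against untreated rRNA-depleted RNA. In SG against Total it was 2, 1 higher and 1 lower, with a pseudocount of 10, in place of 5, while the share of all genes went from 72.4% to 48.1%. Summed with the genes that share its exons, IQCJ-SCHIP1 lost its call in siG3BP2 against siCtrl at -0.25, in siG3BP2 against siG3BP1 at -0.07 and in SG against Total at 1.00. The shares of all genes that passed the rule moved by more than 1.5 times in 28 cases, from 0.302% to 9.93% in siG3BP1 against siCtrl, with the threshold and the pseudocount.

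Among eCLIP results, the 2 genes called for G3BP2 became 0 with the replicate block, with libraries scaled to the same total, with block and scaling together, and without the filter on low values. Leaving out 1 library gave 0 to 12 genes, with 0 without either untreated library, 12 without AS-treated replicate 1 and 6 without replicate 2, where the lone library is assumed to vary like the others. For G3BP1 the count was 0 in each of these fits, and for the interaction it was 0 with the block and with scaling, the alternatives run for it. No member was called in any of them, with a lowest adjusted p of 0.443 for HMOX2 in G3BP2 without the filter. Each comparison has 2 numbered pairs, whose deviations from the group means correlated across genes at 0.149 for G3BP1 and 0.0649 for G3BP2, which with 2 pairs does not establish pairing. Replicate 1 libraries all had larger totals than replicate 2 libraries. The scaling takes the totals out, whereas the block takes out only a replicate difference that both treatments share. For G3BP1 the median log10 change over all genes was -0.115 with the block and -0.00374 with scaling. With the block, 477 genes had an unadjusted limma p under 0.05 for G3BP1 in place of 44, and none was called. The depth behind TPM is unknown.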
